A study of Danio rerio with 12 samples.

Results

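The 5 genes described here are the transcriptional co-activator genes yap1 and wwtr1 and the Hippo feedback genes amotl2a, amotl2b and lats2 of the zebrafish. They were chosen by Ensembl identifier, and all 5 were found among the 25473 genes of the count table and passed the filter on low counts. Polyadenylated RNA was sequenced from zebrafish larvae at 3 days post-fertilization in 12 libraries, 4 of each of 3 genotypes. These are WT, the single mutant yap-/- (YapKO in the sample titles and plots) and the double mutant yap-/-;taz-/- (YapTazKO), so that both mutants carry the yap mutation. The sources used here do not say which alleles these are, how many larvae made up a library or whether the WT larvae were siblings of the mutants. Total counts were 7028251 to 8657381 per library. The RNA of larvae mixes all organs, so that fewer cells of a type and less RNA per cell cannot be told apart. Genes marking endothelium, epidermis, neurons, skeletal muscle, leukocytes, liver and photoreceptors were all detected in every genotype.

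In the Hippo pathway a kinase cassette, in which Mst kinases (Stk3 and Stk4) activate the Lats kinases, phosphorylates Yap and Taz and so keeps them out of the nucleus. In the nucleus Yap, encoded by yap1, and Taz, encoded by wwtr1, bind TEAD transcription factors and switch on target genes. In mammalian cells these targets include genes that restrain Yap and Taz in turn: LATS2, which encodes one of the kinases, and AMOTL2, which encodes a scaffold of cell junctions that binds Yap and Taz and favours their phosphorylation. The zebrafish has 2 copies of the latter gene, amotl2a and amotl2b, left by the genome duplication of teleost fishes. The pathway is best known for limiting the size of organs.

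In both mutants yap1 was lower and amotl2b higher than in WT. wwtr1 and amotl2a were higher in the single mutant than in either other genotype, and neither passed the test between the double mutant and WT. Of 21 alternative settings, 10 lost the call of wwtr1 in the single mutant against WT. For amotl2a 2 lost that call and 6 the call between the mutants. No difference of lats2 passed the test. Against WT, 4 of the 5 genes were called in the single mutant, 3 higher and 1 lower. Over the 19493 genes tested there, 9.13% were called at an adjusted p under 0.05 (edgeR quasi-likelihood test, Benjamini-Hochberg adjustment), 5.71% higher and 3.41% lower. In the double mutant 2 of the 5 were called against WT, 1 higher and 1 lower, where 27.7% of all genes were called, 13.9% higher and 13.8% lower. Between the mutants 2 of the 5 were called, both lower in the double mutant, where 4.18% of all genes were called, 1.92% higher and 2.26% lower. The called genes were also those whose 4 libraries of one genotype did not overlap the 4 of the other, 4, 2 and 2 of the 5. Over all genes such separation was seen in 13.3% in the single mutant against WT (7.93% higher, 5.36% lower), in 28.9% in the double mutant against WT (14.5% higher, 14.4% lower) and in 10.8% between the mutants (5.26% higher, 5.54% lower). Over all genes, 1779 were called in the single mutant against WT, and 1076, 1059, 942, 3041 and 954 without WT 2, WT 3, single mutant 1, single mutant 3 and single mutant 4. Between the mutants 814 were called, and 468, 538, 441 and 497 without single mutant 2, single mutant 3, double mutant 2 and double mutant 4. The members were chosen with results of these data known, so that these counts are a description. Both mutants are compared with the same WT libraries.

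**Figure D1:**
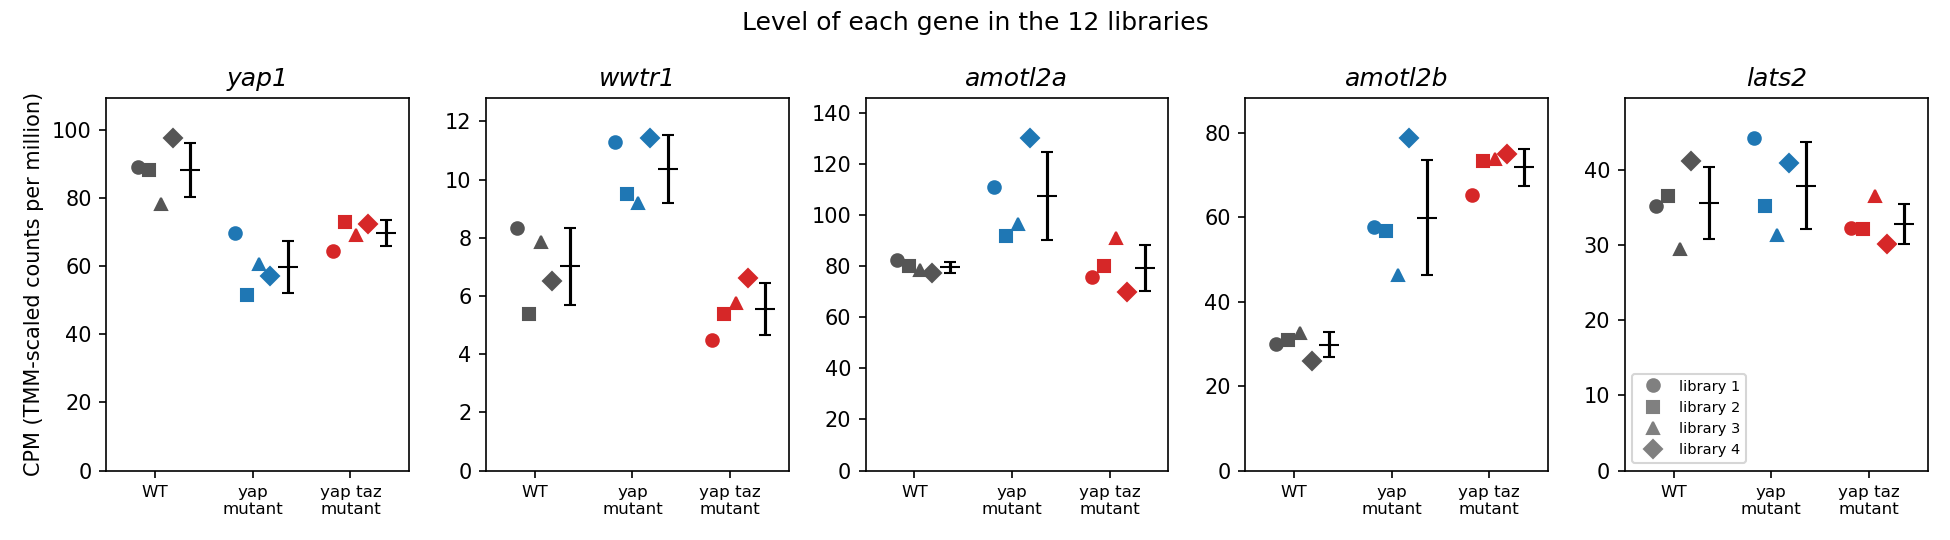
Level of each of the 5 genes (y axes from 0, in CPM, counts scaled to a common library total with TMM) in the 4 libraries of each genotype, with marker shapes for the library number and bars for the mean ± SD. amotl2b ranged from 25.9 to 32.6 CPM in WT and from 65.4 to 75.1 CPM in the double mutant, while the ranges of lats2 overlapped between all genotypes.

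Transcripts of yap1 (ENSDARG00000068401), the gene mutated in both mutants, were read in every library. Its levels were 89.2, 88.2, 78.2 and 97.7 CPM in WT 1 to 4, 69.7, 51.6, 60.7 and 57.0 CPM in the single mutant libraries and 64.5, 73.0, 69.1 and 72.5 CPM in the double mutant libraries. The WT libraries thus lay above all 8 mutant libraries, while the ranges of both mutants overlapped. The single mutant had 0.677 times the WT level (95% interval 0.589 to 0.777, adjusted p = 0.00149) and the double mutant 0.79 times (0.688 to 0.906, adjusted p = 0.0126). Both calls held under all 21 alternative settings. The order of the means was single mutant, double mutant, WT, and the neighbours single mutant and double mutant did not pass the test of their difference (ratio 1.17, 95% interval 1.01 to 1.34, unadjusted p = 0.0325, adjusted p = 0.219).

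wwtr1 (ENSDARG00000067719), which encodes Taz, had few counts, from 37 to 91 per library. Its levels were 8.33, 5.39, 7.84 and 6.50 CPM in WT, 11.3, 9.49, 9.21 and 11.4 CPM in the single mutant and 4.47, 5.38, 5.76 and 6.60 CPM in the double mutant. All 4 single mutant libraries stood above the other 8, whose ranges overlapped each other. The double mutant had 0.535 times the level of the single mutant (95% interval 0.417 to 0.686, adjusted p = 0.00673), a call that held under all 21 settings, with adjusted p = 0.000548 to 0.0278. Against WT the single mutant had 1.47 times the level (1.16 to 1.87, adjusted p = 0.0425), which stood near the threshold. That call was lost when low counts were not filtered out (adjusted p = 0.0594), with the 8 libraries of the compared genotypes alone (adjusted p = 0.0686) and without WT 2, 3 or 4, single mutant 1, 2 or 4, or double mutant 2 or 3 (adjusted p = 0.053 to 0.123). The double mutant did not pass the test against WT (0.787 times, 95% interval 0.609 to 1.02, adjusted p = 0.156).

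The balance of both co-activator transcripts within a library does not depend on how libraries are scaled. Of the counts of yap1 and wwtr1 together, wwtr1 held 8.54%, 5.76%, 9.12% and 6.24% in WT 1 to 4, 13.9%, 15.5%, 13.2% and 16.7% in the single mutant libraries, and 6.48%, 6.87%, 7.69% and 8.35% in the double mutant libraries. The lowest single mutant library was above every other library, and the double mutant range lay inside the WT range. The mean share was 14.8% ± 1.59 (SD, n = 4) in the single mutant and 7.42% ± 1.66 in WT, 7.42 percentage points apart. The exact two-sided permutation test gave p = 0.0286, the smallest that 4 against 4 libraries allow, and an adjusted p = 0.0514 over the 9 share tests. With 5 of the 9 tests at that smallest p, none of them could reach an adjusted p under 0.05, so the adjusted value says nothing of the size or stability of the shift. The double mutant, at 7.35% ± 0.837, differed from the single mutant by -7.48 points with the same p values, and from WT by -0.0684 points (exact p = 0.914). Shares of counts are not shares of transcripts, since the genes may differ in length. The 95% Wilson intervals of single libraries, drawn in the plot of shares, cover counting error only.

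**Figure D2:**
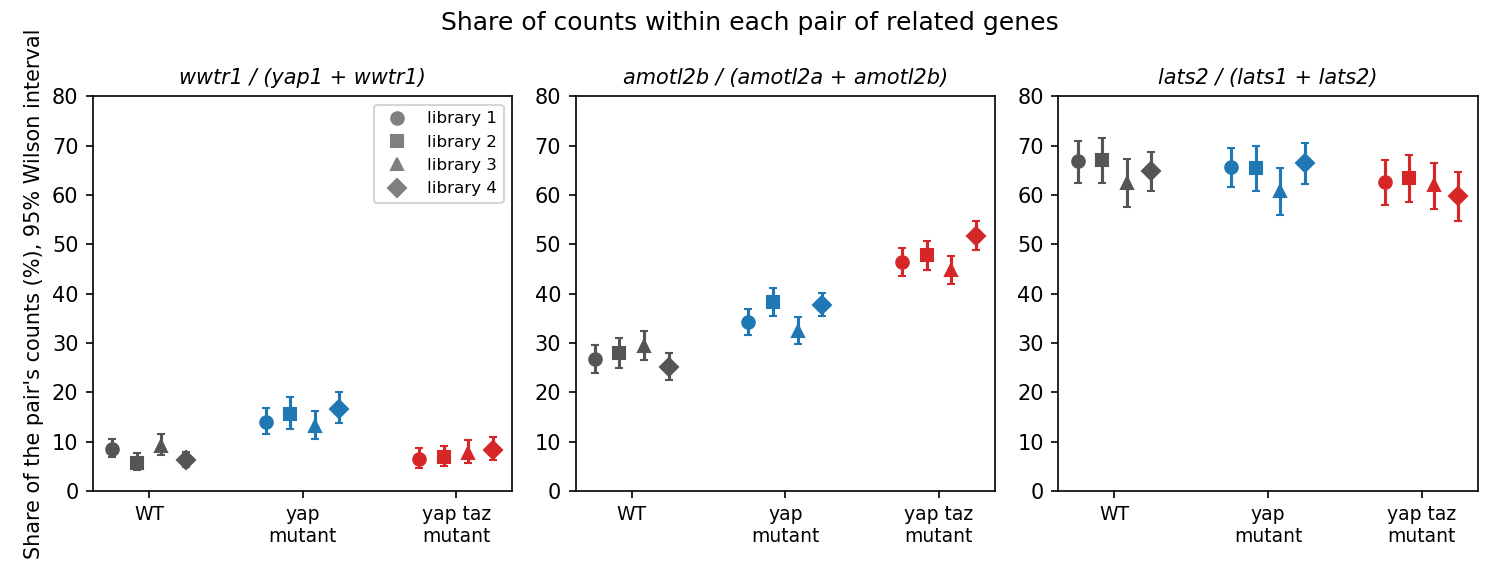
Share of counts (y axes, percent, from 0) held by wwtr1 in the pair with yap1, by amotl2b in the pair with amotl2a, and by lats2 in the pair with lats1, for each library with its 95% Wilson interval. The amotl2b share had a mean of 27.3% in WT, 35.7% in the single mutant and 47.7% in the double mutant, with no overlap between genotypes.

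amotl2a (ENSDARG00000061923), listed as AMOTL2 in the table of names, was highest in the single mutant. It was measured at 82.2, 80.2, 78.3 and 77.3 CPM in WT, the narrowest spread of the 5 genes in any genotype (SD 2.73% of the mean). The single mutant libraries had 110.9, 91.8, 96.3 and 130.1 CPM, and the double mutant libraries 75.6, 80.2, 90.9 and 69.95 CPM. Every single mutant library thus exceeded every other library, by little in single mutant 2 against double mutant 3, and the double mutant range enclosed that of WT. The rise in the single mutant was 1.35-fold (95% interval 1.16 to 1.57, adjusted p = 0.0175), and was not called without single mutant 1 (adjusted p = 0.0523) or single mutant 4 (adjusted p = 0.0607). The double mutant had 0.738 times the single mutant level (0.632 to 0.861, adjusted p = 0.0258), which was not called without single mutant 1 or 4 or double mutant 1, 2 or 4 (adjusted p = 0.0518 to 0.0849). Against WT the double mutant stood at 0.995 times (0.853 to 1.16, adjusted p = 0.97).

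amotl2b (ENSDARG00000061948), the other copy, was higher in both mutants. Its levels were 29.9, 31.0, 32.6 and 25.9 CPM in WT, 57.7, 56.8, 46.3 and 78.8 CPM in the single mutant and 65.4, 73.4, 73.8 and 75.1 CPM in the double mutant. All 8 mutant libraries lay above all WT libraries, and single mutant 4 exceeded every double mutant library. The rise was 2.01-fold in the single mutant (95% interval 1.66 to 2.43, adjusted p = 0.000162) and 2.41-fold in the double mutant (1.99 to 2.91, adjusted p = 3.47e-06), and both calls held under all 21 settings. Their absolute log2 fold changes stood at percentiles 97.6 and 95.6 of all genes tested in the same comparisons. The order of the means was WT, single mutant, double mutant. The last step was not called (1.2-fold, 95% interval 0.999 to 1.44, adjusted p = 0.272), except without single mutant 4 (log2 fold change 0.42, adjusted p = 0.0209).

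The balance between the amotl2 copies differed between the genotypes without overlap. amotl2b held 26.7%, 27.9%, 29.4% and 25.1% of the counts of the pair in WT, 34.2%, 38.2%, 32.5% and 37.7% in the single mutant, and 46.4%, 47.8%, 44.8% and 51.8% in the double mutant. The highest WT library stood below every single mutant library, and the highest of those below every double mutant library. The single mutant was above WT by 8.4 points, the double mutant above WT by 20.4 points, and the double mutant above the single mutant by 12 points. Each comparison gave the smallest exact permutation p of 4 against 4 libraries (p = 0.0286, adjusted p = 0.0514 over the 9 share tests, which these tests could not go below). The step between the mutants joins the fall of amotl2a with a level of amotl2b whose own difference did not pass the test.

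The library single mutant 4 held the highest value of its genotype for amotl2a, amotl2b and, by little, wwtr1 (11.4 CPM, against 11.3 CPM in single mutant 1). Single mutant 1 was highest for yap1 and lats2. In single mutant 4 the 12 leukocyte marker genes summed to 124 CPM, against 75.6 to 83.7 CPM in the other single mutant libraries. It also had the highest single mutant sums of endothelial markers (201 CPM, against 172 to 190 CPM) and epidermal markers (12200 CPM, against 10000 to 11100 CPM). Its sums of neuron, muscle, liver and photoreceptor markers were not the highest of its genotype. Over the genotypes the leukocyte sum was 55.9 to 76.2 CPM in WT, 75.6 to 124 CPM in the single mutant and 119 to 149 CPM in the double mutant. The 12 leukocyte genes matched 7 of 10 listed symbols, with several entries of MFAP4, while mpx, mpeg1.1 and lcp1 were not found. Of the 11 leukocyte genes tested 5 were higher and 0 lower in the single mutant against WT (8 and 1 at an unadjusted p under 0.05), and 8 were higher and 0 lower in the double mutant (9 and 0). For this and the other marker lists, the shares of all genes called were 5.71% higher and 3.41% lower in the single mutant. In the double mutant they were 13.9% and 13.8%. Muscle marker sums were 45900 to 52100 CPM in WT, 54500 to 64500 CPM in the single and 56500 to 77300 CPM in the double mutant. Of the 10 muscle genes 3 were called higher in the single mutant and 7 in the double mutant against WT, and 0 lower. Photoreceptor marker sums were lower in the mutants, at 3170 to 4540 CPM in WT against 1940 to 2730 and 1900 to 2660 CPM, as were those of neurons, at 2340 to 2520 CPM against 1840 to 2240 and 1930 to 2210 CPM. Of the 12 photoreceptor genes 8 and 9 were called lower in the single and double mutant against WT, and 0 higher. Of the 10 neuron genes 4 were called lower, 0 higher and 6 not at all in each mutant. Among the neuron genes tubb5 fell most in CPM, from a mean of 492 in WT to 292 and 266. The mean of ELAVL3 was higher in the single mutant (184 against 167 CPM) and that of NEUROD1 in the double mutant (197 against 175 CPM), neither called. The 10 epidermal markers summed to 7900 to 11500 CPM in WT, 10000 to 12200 CPM in the single mutant and 8820 to 15900 CPM in the double mutant, and the 7 endothelial markers to 145 to 168, 172 to 201 and 160 to 175 CPM. Against WT 4 epidermal genes were called higher and 0 lower in the single mutant, and 5 higher and 2 lower in the double mutant. Of the endothelial genes 1 was called higher and 0 lower in the single mutant, and 2 higher and 2 lower in the double mutant. The 8 liver markers summed to 5200 to 5600, 4830 to 6090 and 4810 to 5690 CPM, with 3 called higher and 2 lower in each mutant against WT. The part of these cell types in the levels of the 5 genes was not tested. Without single mutant 4, the log2 fold change in the single mutant against WT was 0.85 for amotl2b (adjusted p = 0.000144), 0.33 for amotl2a (adjusted p = 0.0607, not called) and 0.51 for wwtr1 (adjusted p = 0.122, not called).

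lats2 (ENSDARG00000078864), the kinase gene, was measured at 35.2, 36.5, 29.5 and 41.2 CPM in WT, 44.3, 35.2, 31.3 and 40.9 CPM in the single mutant and 32.3, 32.1, 36.6 and 30.2 CPM in the double mutant. The 3 ranges overlapped. No comparison passed the test, in the main fit or under any of the 21 settings (adjusted p = 0.668, 0.484 and 0.368 for the single mutant against WT, the double mutant against WT and the double mutant against the single mutant). The 95% intervals of the ratios were 0.897 to 1.26, 0.774 to 1.09 and 0.727 to 1.03. All include 1, and the last reaches below the 0.738 called for amotl2a in the same comparison, so a difference of that size is not excluded. The related kinase gene lats1 (ENSDARG00000003751) was also not called, at 18.8 ± 2.28 CPM in WT, 20.6 ± 1.89 CPM in the single mutant and 20.1 ± 1.72 CPM in the double mutant. lats2 held 65.4% ± 2.13 of the counts of both kinase genes in WT, 64.7% ± 2.61 in the single mutant and 62% ± 1.61 in the double mutant, and none of these differences passed the exact permutation test (p = 0.629 for the single mutant against WT, 0.0857 for the double mutant against WT and 0.114 between the mutants). Without WT 3 the double mutant was lower than WT by 4.36 points. Without single mutant 3 it was lower than the single mutant by 3.98 points. Each difference then reached the smallest exact p that the libraries allow. The adjusted p = 0.0429 of both was set by the number of share tests tied there, and says nothing of the size or stability of the difference.

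**Figure D3:**
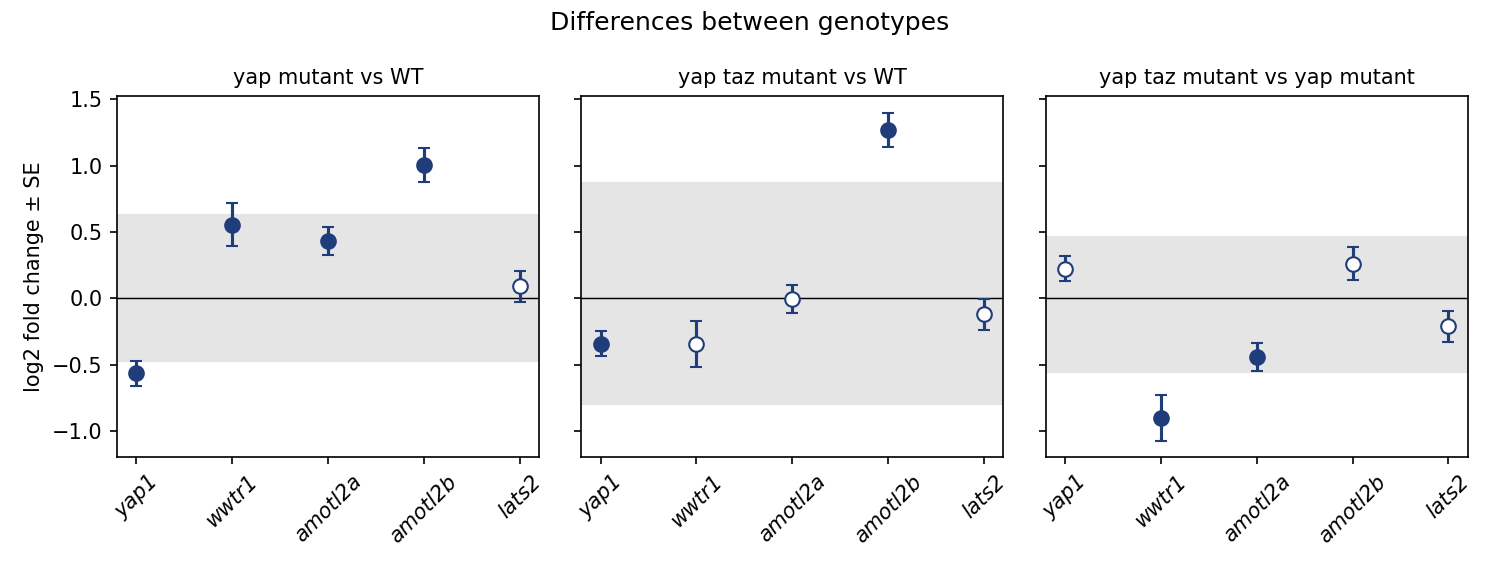
log2 fold change ± SE (y axis) of each of the 5 genes in the 3 comparisons, filled where the adjusted p was under 0.05, with a grey band from the 5th to the 95th percentile of all genes tested. amotl2b lay above the band against WT in both mutants, wwtr1 lay below it between the mutants, and yap1 lay below it in the single mutant against WT.

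Of 6 genes of the kinase cassette, lats1 among them, mob1a (ENSDARG00000102320), which encodes a co-activator of the Lats kinases, rose from 40.2 ± 4.27 CPM in WT to 50.7 ± 2.53 CPM in the single mutant (log2 fold change 0.34 ± 0.0858 SE, adjusted p = 0.0229) and to 55 ± 3.5 CPM in the double mutant (0.46 ± 0.0857, adjusted p = 0.00091). The first of these calls was lost without WT 1, WT 4 or single mutant 1 (adjusted p = 0.0508 to 0.0563). The other 5 genes were not called against WT, where 9.13% of all genes were called in the single mutant and 27.7% in the double mutant. Between the mutants, where 4.18% of all genes were called, 0 of 6 were called by edgeR, limma-voom or DESeq2 (0 at an unadjusted p under 0.05). The median log2 fold change of the 6 was 0.003 in the single mutant and 0.06 in the double mutant against WT, where all genes tested had 0.004 and 0.008.

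Of 36 upstream regulators and scaffolds 3 were higher and 0 lower in the single mutant against WT (7 and 2 at an unadjusted p under 0.05), where 5.71% of all genes were called higher and 3.41% lower, so that the share called was near that of all genes. The 3 were MINK1 (ENSDARG00000035360) and taok1b (ENSDARG00000098304), kinase genes, and PTPN21 (ENSDARG00000062248), a phosphatase gene, with log2 fold changes of 0.41, 0.37 and 0.69 (adjusted p = 0.0296, 0.0375 and 0.0342). With the replicate number as a block 5 genes were called, 4 higher and 1 lower. With the 8 libraries alone, and without WT 2, WT 3 or single mutant 1, 2 or 4, 0 were called, 1 without WT 1 and 6 without single mutant 3. In the double mutant against WT 9 were higher and 1 lower at an unadjusted p under 0.05, and limma-voom and DESeq2 each called 6, 5 of them higher. By edgeR 5 were called higher and 0 lower, where 13.9% of all genes were called higher and 13.8% lower. Among them TAOK3 (ENSDARG00000060751), a kinase gene, went from 25 ± 0.94 to 35 ± 1.78 CPM (0.49 ± 0.0886, adjusted p = 0.000651) and MAP4K4 (ENSDARG00000098670), a kinase gene that acts on Lats in parallel to the Mst kinases in mammals, from 47.2 ± 1.84 to 60.4 ± 5.28 CPM (0.35 ± 0.0771, adjusted p = 0.0027). ywhaz (ENSDARG00000032575), a 14-3-3 protein gene (0.32 ± 0.074, adjusted p = 0.00388), and taok1b (0.42 ± 0.105, adjusted p = 0.00696) were also higher. Both 14-3-3 genes listed as YWHAB were lower there and not called. Their log2 fold changes were -0.179 (ENSDARG00000013078, adjusted p = 0.053) and -0.129 (ENSDARG00000075758, adjusted p = 0.171). The angiomotin gene AMOT (ENSDARG00000078335), of the same family as the amotl2 copies, was not called, at 23.8 ± 4.36, 27.2 ± 3.27 and 26.5 ± 1.03 CPM in WT, the single mutant and the double mutant. Between the mutants, where 4.18% of all genes were called, 0 of 36 were called (2 higher and 0 lower at an unadjusted p under 0.05). By limma-voom and DESeq2 0 were called, and 1 by edgeR without single mutant 4. The medians against WT were 0.12 in the single mutant and 0.13 in the double mutant.

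Of 10 genes of TEAD factors, the DNA-binding partners of Yap and Taz, and of Vgll proteins, which bind the same factors, 0 were called in the single mutant against WT by edgeR or DESeq2 and 1 by limma-voom (2 higher at an unadjusted p under 0.05), and 1 was called by edgeR without WT 3. Of all genes 9.13% were called there, and the median log2 fold change of the 10 was 0.34, above the 0.004 of all genes. It was 0.18 in the double mutant against WT and -0.046 between the mutants, where all genes had 0.008 and -0.001. In the double mutant against WT 2 of the 10 were called, both higher, where 13.9% of all genes were called higher and 13.8% lower. There vgll4l (ENSDARG00000068409) rose from 15 ± 2.77 to 23 ± 2.49 CPM (0.62 ± 0.123, adjusted p = 0.00134). VGLL4 (ENSDARG00000103730), a copy of a gene whose product competes with Yap for TEAD in mammals, was the other call (0.43 ± 0.154, adjusted p = 0.0475). It was lost with both other scalings, without a filter, with the 8 libraries alone and without 9 single libraries, namely WT 1, 2 or 3, single mutant 2, 3 or 4 and double mutant 1, 2 or 4 (adjusted p = 0.0512 to 0.17). Between the mutants, where 4.18% of all genes were called, 0 of 10 were called by edgeR, limma-voom or DESeq2 (0 at an unadjusted p under 0.05).

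Of 26 genes used as readouts of Yap and Taz in mammalian cells, with the 5 described here left out, 5 were higher and 1 lower in the single mutant against WT (12 and 1 at an unadjusted p under 0.05), and 9 were higher and 2 lower in the double mutant (15 and 2). Of all genes 5.71% were called higher and 3.41% lower in the single mutant, and 13.9% higher and 13.8% lower in the double mutant. Median log2 fold changes were 0.29 and 0.36, against 0.004 and 0.008 over all genes. NUAK2 (ENSDARG00000063661), a kinase gene, rose from 10.8 ± 1.43 CPM in WT to 17.7 ± 1.31 CPM in the single mutant (0.72 ± 0.13, adjusted p = 0.00256) and 21.5 ± 3.12 CPM in the double mutant (0.998 ± 0.129, adjusted p = 3.28e-05). CCN2 (ENSDARG00000042934), a matricellular protein gene, rose from 102 ± 5.78 CPM in WT to 164 ± 26.7 CPM in the single mutant (0.685 ± 0.11, adjusted p = 0.00106) and 227 ± 26.2 CPM in the double mutant (1.16 ± 0.11, adjusted p = 1.71e-06). Its other copy ccn2b (ENSDARG00000104292) went the other way, from 22.3 ± 2.7 CPM in WT to 17.2 ± 1.41 CPM in the double mutant (-0.375 ± 0.115, adjusted p = 0.0227). That call was lost without WT 2, WT 3 or double mutant 1 (adjusted p = 0.0624 to 0.0757). In the single mutant ccn2b was not called (-0.203 ± 0.113, adjusted p = 0.279). GADD45A (ENSDARG00000104571), a gene induced by DNA damage and stress, rose from 16.8 ± 3.16 CPM in WT to 32.6 ± 6.12 CPM in the double mutant (0.96 ± 0.141, adjusted p = 0.000113). It was narrowly called in the single mutant (0.47 ± 0.144, adjusted p = 0.0496), and not with RLE scaling or limma-voom, among other settings (adjusted p = 0.0506 to 0.125). The other gene listed as GADD45A (ENSDARG00000043581) was called higher in the double mutant (0.58 ± 0.193, adjusted p = 0.0344). It was not called with limma-voom or without WT 1, WT 3, double mutant 2 or double mutant 4 (adjusted p = 0.0502 to 0.121). ccdc80 (ENSDARG00000000002), a secreted protein gene, and CCN1 (ENSDARG00000023062) were higher in the single mutant (0.59 ± 0.143, adjusted p = 0.0172, and 0.61 ± 0.156, adjusted p = 0.0239). Both were also higher in the double mutant against WT (0.945 ± 0.142, adjusted p = 0.00013, and 0.905 ± 0.155, adjusted p = 0.000433). The single mutant call of ccdc80 was lost without WT 3 or single mutant 4 (adjusted p = 0.0563 and 0.0502), and that of CCN1 without WT 1, WT 3, WT 4 or single mutant 4 (adjusted p = 0.0526 to 0.0847). Of the listed genes 3, 2 and 2 were called in the single mutant against WT without WT 1, WT 3 and single mutant 4.

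ANKRD1 (ENSDARG00000076192), an ankyrin repeat gene expressed in muscle, was lower in both mutants, unlike amotl2b. It was at 60.7 ± 8.2 CPM in WT, 36.5 ± 16.6 CPM in the single mutant and 9.56 ± 0.991 CPM in the double mutant. It fell in the double mutant against WT (-2.67 ± 0.256, adjusted p = 1.94e-06) and against the single mutant (-1.94 ± 0.261, adjusted p = 0.000901). In the single mutant against WT it was called narrowly (adjusted p = 0.049), and not with the 8 libraries alone, with DESeq2, or without WT 1, 2 or 3, single mutant 1 or 4 or any 1 of the double mutant libraries (adjusted p = 0.0606 to 0.149). The other gene listed as ANKRD1 (ENSDARG00000075263) was not called (log2 fold changes 0.58, 0.55 and -0.03 in the single mutant against WT, the double mutant against WT and between the mutants). Between the mutants ANKRD1 (ENSDARG00000076192) and CCN2 were the 2 of 26 listed genes called, CCN2 higher (0.47 ± 0.108, adjusted p = 0.0197). Of all genes 4.18% were called there, 1.92% higher and 2.26% lower. CCN2 was not called there without single mutant 2 or 3 or double mutant 2, 3 or 4 (adjusted p = 0.0556 to 0.07), each of which left 1 listed gene called, while 4 were called without single mutant 4.

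**Figure D4:**
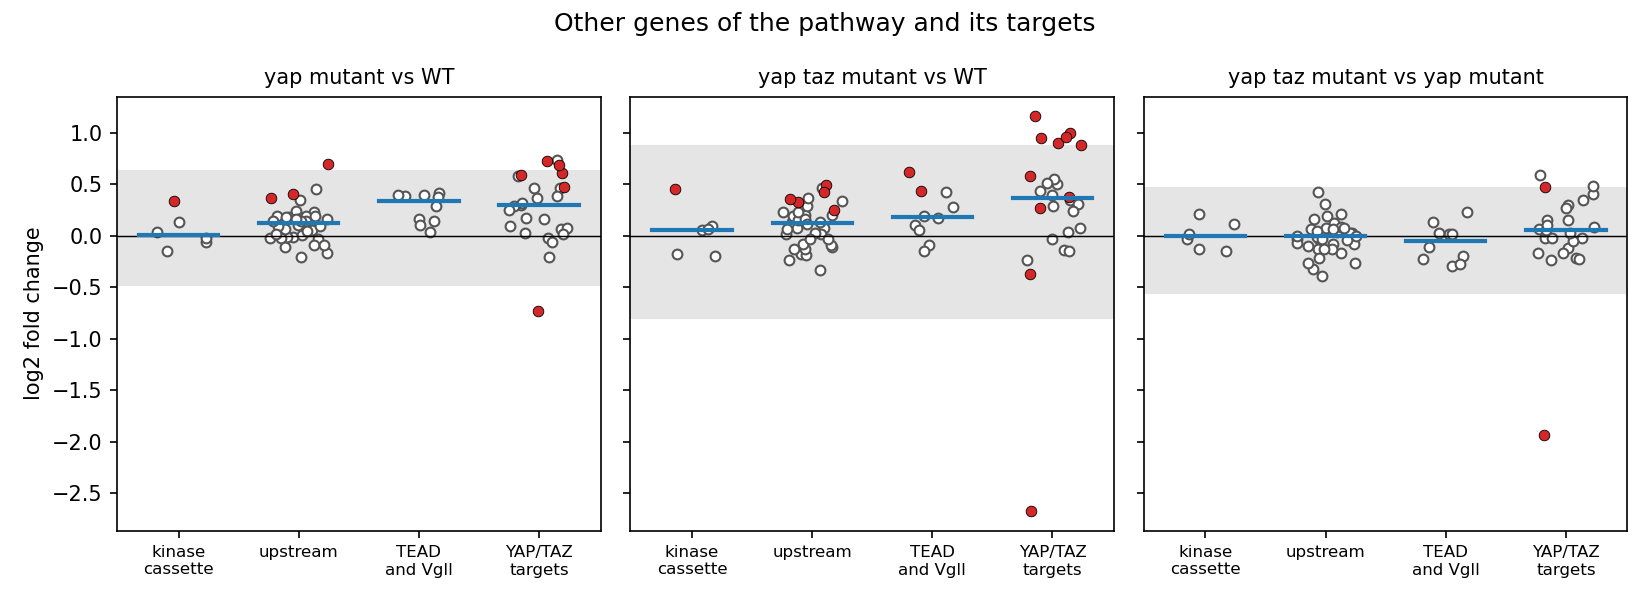
log2 fold change (y axis) of each gene of the 4 lists in the 3 comparisons, red where the adjusted p was under 0.05, with a blue line at the list's median and a grey band from the 5th to the 95th percentile of all genes tested. The target list has its median at 0.36 in the double mutant against WT, and ANKRD1 (ENSDARG00000076192) lies at -2.67.

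The genes whose pattern over the 12 libraries was nearest to each of the 5 were found among 15900 named genes whose mean log2 CPM reached 1. Likeness was the root mean square distance between log2 CPM values standardised to SD units, for which the median gene stood at 1.35 to 1.37. Nearest to amotl2b were gcga (ENSDARG00000079296), a glucagon gene, at 0.144, lepb (ENSDARG00000045548), a leptin gene, at 0.182, and CLU (ENSDARG00000010434), the clusterin gene, at 0.191. gcga had 14.4 ± 1.9 CPM in WT, 45.1 ± 15.4 CPM in the single mutant and 64.5 ± 9.59 CPM in the double mutant. lepb was read once in each WT library and 15 to 127 times in the mutant libraries. The distances of the other 4 genes to their nearest genes were larger. Nearest to yap1 were gtse1 at 0.451, the kinase gene MAPK6 at 0.468 and the transcription factor gene KLF11 at 0.493, all lower in both mutants (log2 fold changes -0.32 to -0.75). Nearest to wwtr1 were the endothelin gene edn2 at 0.356, SHISA3 at 0.366 and GLI2, a transcription factor gene of Hedgehog signalling, at 0.436. edn2 had few counts, from 10 to 29 per library. Neither edn2 nor GLI2 was called in any comparison, and SHISA3 was called between the mutants alone (log2 fold change -0.585 ± 0.101, adjusted p = 0.00388). Nearest to amotl2a were aep1 at 0.315, MYMK, whose product fuses muscle cells, at 0.393 and the caveola gene CAVIN2 at 0.488. MYMK was not called in any comparison. Nearest to lats2 were fgfrl1b at 0.408, ipo13a at 0.434 and palm2akap2 at 0.463, none of them called in any comparison. Among the 5 genes themselves wwtr1 and amotl2a were closest, at 0.669, and yap1 and amotl2b farthest, at 1.77, while the amotl2 copies stood at 1.11 from each other.

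**Figure D5:**
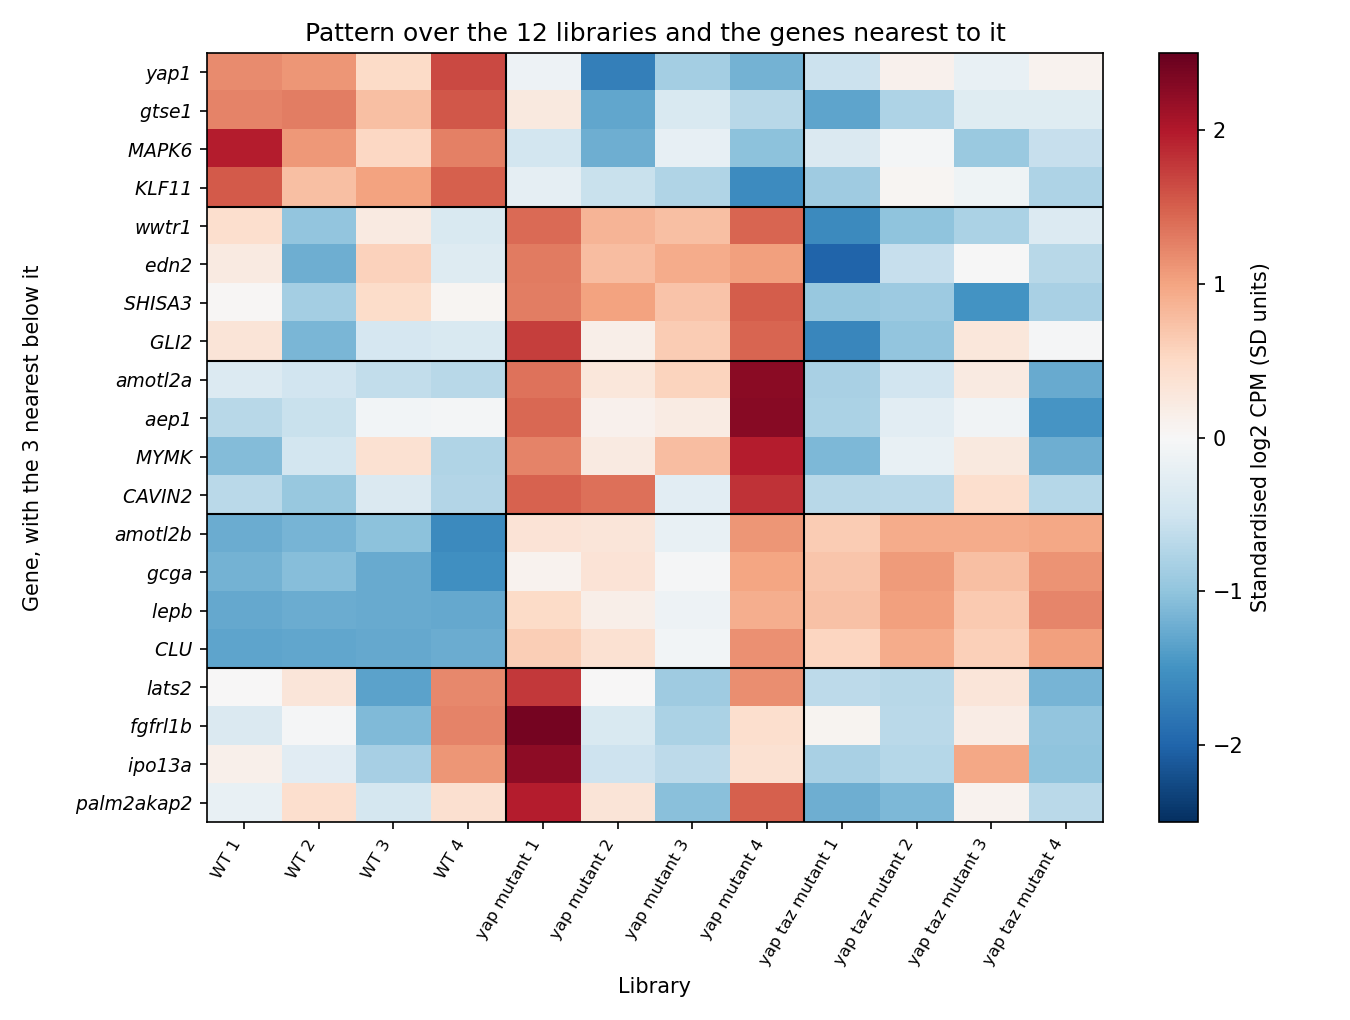
Standardised log2 CPM (colour, SD units) of the 5 genes and of the 3 genes nearest to each in the 12 libraries (x axis). The amotl2b block is low in the 4 WT libraries and high in the 4 double mutant libraries, and the amotl2a block is highest in single mutant 4.

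The genes beside each of the 5 on its chromosome were looked up by name in RefSeq's gene order of assembly GRCz12tu, with 5 protein-coding genes on each side. The surroundings of the amotl2 copies hold paired copies of the same genes, rab6ba, sap130a and myo7ba beside amotl2a and rab6bb, sap130b and myo7bb beside amotl2b. Of the 7 tested neighbours of yap1 0 were called by edgeR in the single mutant against WT (0 at an unadjusted p under 0.05) and 0 between the mutants (1 at an unadjusted p under 0.05), and TBCB (ENSDARG00000068404), a tubulin folding cofactor gene, was called higher in the double mutant (0.35 ± 0.0703, adjusted p = 0.00141). Of the 8 tested neighbours of wwtr1 5 were called in the double mutant against WT, 2 higher and 3 lower, where 27.7% of all genes were called. Of these CP (ENSDARG00000010312), the ceruloplasmin gene, and fetub (ENSDARG00000053973), a fetuin gene, both expressed by the liver, were also called in the single mutant against WT. Their log2 fold changes there were 1.33 ± 0.159 (adjusted p = 8.22e-05) and -0.72 ± 0.191 (adjusted p = 0.0272). The others of the 5 were not called there. TM4SF4 (ENSDARG00000040747) went from 104 ± 39.4 CPM in WT to 70.8 ± 28.6 and 54.9 ± 9.27 CPM in the single and double mutant. TM4SF18 (ENSDARG00000060668) went from 5.8 ± 0.904 to 8.18 ± 1.33 and 9.72 ± 2.17 CPM. The neighbour ENSDARG00000070918 was lower in the double mutant than in the single mutant (-0.80 ± 0.172, adjusted p = 0.0145), and the other 7 were not called between the mutants. The part of linked variation in these values was not tested. Of the 6 tested neighbours of amotl2a 0 were called by edgeR in any comparison (0, 1 and 1 at an unadjusted p under 0.05 in the single mutant against WT, the double mutant against WT and between the mutants). Beside amotl2b, 1 of 3 tested neighbours was called in the double mutant against WT, the myosin gene myo7bb (log2 fold change -1.08 ± 0.272, adjusted p = 0.00722). Beside lats2, 1 of 7 was called there, ska3, a gene of the spindle and kinetochore (-0.90 ± 0.164, adjusted p = 0.00073). In the other comparisons 0 neighbours of amotl2b were called (1 and 0 at an unadjusted p under 0.05) and 0 of lats2 (1 and 1).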

How the data were processed

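RNA was sequenced from 12 libraries of larvae, grouped by sample title. The authors deposited raw counts per Ensembl gene, and STAR 2.3.0e and HTSeq 0.6.0 are named in the submitters' processing notes. Genome build, annotation release and strand: not given in the sources used here. Reads of overlapping or antisense genes may be shared, and near-identical copies may share reads. Genes were kept with filterByExpr (minimum count 10, total 15), scaled by TMM and tested with the quasi-likelihood test of edgeR 4.0.16 under R 4.3.3 on all 12 libraries with 1 coefficient per genotype. Tests were two-sided, p was adjusted over the 19493 genes tested, and 95% intervals come from the SE and the model's degrees of freedom. Log2 CPM used a prior count of 2.

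The members and lists were chosen with earlier results of these data known. Symbols came from the supplied list of names, and list symbols were matched exactly or without the paralogue letter (6 of 7 cassette, 35 of 43 upstream, 10 of 13 TEAD and Vgll and 25 of 28 target symbols, and 2 genes are in both of the lists of upstream and target genes). RefSeq names of GRCz12tu gave the gene order. Named genes were the 5 members, lats1, amot, up to 4 called genes per list and comparison by smallest p, the 3 nearest patterns and called neighbours. Genes named beyond these were singled out after their values were seen. Nothing says that the libraries of a genotype came from separate clutches, so p-values reflect their spread alone, which may be technical.

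Sample titles carry numbers 1 to 4 for every genotype. Deviations from the group mean correlated at 0.18, 0.306, 0.282 and 0.388 between WT and single mutant libraries of the same number, each above the 0.1 set for pairing, and at most at 0.166 in the other comparisons, with values below 0.1. Alternatives were other scalings (RLE, upper quartile), no filter, a filter of 1 CPM in 4 libraries, the 8 libraries of a comparison alone, the replicate block, limma-voom 3.58.1, DESeq2 1.42.0 and each library left out. A fit combining the block with the 8 libraries was added after seeing the data.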

Additional observations from a re-analysis of the deposited data

Results flagged for a closer look

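The share of lats2 in the counts of lats1 and lats2 was 60.8% in single mutant 3, below the 65.6% to 66.5% of the other 3 single mutant libraries, and its gap to the nearest of them took 0.832 of the range of the 4; Dixon's 95% critical value for 4 samples is just below that. It was 1 of 24 groups of 4 examined, and chance gives about 1 in 20.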

How the results depend on the processing

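Of the 15 differences of the 5 genes, those of yap1, those of lats2, both of amotl2b against WT and those of wwtr1 involving the double mutant kept their direction and their side of the threshold in all 21 settings; the others are given with their values below. The log2 fold change of wwtr1 in the single mutant against WT was 0.53 without a filter and 0.56 with the 8 libraries alone, neither past the threshold, and 0.45 to 0.65 with 1 library left out. For amotl2a it was 0.33 to 0.50 in the single mutant against WT, -0.079 to 0.045 in the double mutant against WT, where it changed sign without WT 1 (0.009), double mutant 1 (0.015) or double mutant 4 (0.045), and -0.51 to -0.33 between the mutants with 1 library left out. The last was -0.43 and not called with the replicate block and 8 libraries alone. Also not called, lats1 between the mutants ranged from -0.089 to 0.025 with 1 library left out (0.025 without single mutant 1, 0.003 without double mutant 2) and amot from -0.07 to 0.052 (0.052 without single mutant 1), both changing sign. The log2 fold change of amotl2b between the mutants was 0.16 to 0.42. In the 12-library fit the replicate block joined libraries of the same number across the genotypes, although the labels do not say that numbers pair libraries. With the block, 2758 genes were called in the single mutant against WT in place of 1779 (3380 with the 8 libraries alone, 1163 with those and no block, and 942 without single mutant 1 to 3041 without single mutant 3). The block changed no call of the 5 genes in the 12-library fit. Between the mutants the block gave 1443 in place of 814, and leaving out 1 library 441 to 1087.

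List counts moved too. Upstream genes called in the single mutant against WT were 0 with the 8 libraries alone, 5 with the block, 6 with both and 0 to 6 with 1 library left out, and between the mutants 1 with the block and 0 to 1 with 1 library left out. Cassette genes were 0 to 1 in the single mutant with 1 library left out and 2 in the double mutant with upper-quartile scaling. TEAD and Vgll genes were 1 in the single mutant with limma-voom and with the block and 8 libraries, and 0 to 1 with 1 library left out; in the double mutant 1 with RLE, upper-quartile scaling, no filter or 8 libraries alone, and 1 to 2 with 1 library left out. Target genes were 10 in the single mutant with the block and 8 libraries and 2 to 8 with 1 library left out, and between the mutants 4 with the 8 libraries alone, the block or DESeq2 and 1 to 4 with 1 library left out.

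With 1 library left out, the difference of the wwtr1 share was 6.79 to 7.98 points (single mutant against WT), -0.621 to 0.499 (double mutant against WT) and -8.04 to -6.86 (between the mutants), that of the amotl2b share 7.54 to 9.46, 19 to 21.4 and 10.6 to 13 points, and that of the lats2 share -1.67 to 0.568, -4.36 to -2.66 and -3.98 to -1.94 points. The wwtr1 share in the double mutant against WT changed sign without WT 1 (0.307), WT 3 (0.499), double mutant 1 (0.221) or double mutant 2 (0.0913) and as a log2 ratio of CPM (0.018), and the lats2 share in the single mutant against WT without single mutant 3 (0.568). Without WT 3 or single mutant 3 a lats2 share difference also reached the smallest exact p, which by the number of tied tests alone moved the adjusted p of the wwtr1 and amotl2b shares already there from 0.0514 to 0.0429. In the paired form with the replicate block, 4 pairs cannot pass the threshold. The causes of these shifts were not tested. Depth limits wwtr1 most, with 37 to 91 counts per library.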
